A study of Saccharomyces cerevisiae with 3 samples.

Results

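The 39 genes described here encode proteins of the small subunit processome and other factors that assemble the 40S ribosomal subunit of budding yeast. They were taken by systematic name from a list, and they are 39 of the 6212 genes listed on the arrays. A log2 ratio was present for 37 of them on at least 1 array, for 35 in both replicates and for 33 on all 3 arrays. UTP10 (YJL109C) and UTP14 (YML093W) were blank everywhere, UTP21 was blank in replicate 1 and NOP1 was blank on the array labelled replicate 2.

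The arrays compared transcript levels of wild type JA100 with those of a mutant of the same background, tetO:HAL3 vhs3::URA3. In the mutant the tetO promoter drives HAL3, so that the drug represses it, and the URA3 marker replaces VHS3. The drug, 100 µg/ml doxycycline, was present in the wild type culture too. Growth lasted 15 h at 28 °C, in synthetic complete medium. Hal3 and Vhs3 inhibit the protein phosphatase Ppz1 and take part in coenzyme A synthesis. The labels name 2 biological replicates. Replicate 1 was hybridised as a dye-swap pair, with the mutant in Cy5 on one array and in Cy3 on the other, and replicate 2 on a single array with the mutant in Cy5.

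The small subunit processome is a large particle that forms on the nascent 35S pre-rRNA in the nucleolus. It holds the U3 small nucleolar RNA, which pairs with the pre-rRNA, and it is needed for the cleavages that release the precursor of 18S rRNA. Its proteins join largely as preformed subcomplexes, first UtpA, then UtpB and the U3 particle, and later single factors and enzymes. Their genes belong to the ribosome biogenesis regulon, which in yeast follows growth rate, nutrients and TOR signalling.

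All values below are log2 ratios read as mutant over wild type, with the median of each array set to 0. This direction is likely rather than stated: it takes the Cy5 channel as the numerator where it holds the mutant, and the swapped array as already turned. The sample titles, written like ratios, name the Cy3 sample first, and read as written they would put the wild type on top wherever the mutant is in Cy5. A ratio relative to the array median cannot tell more transcript per cell from a smaller total of the other transcripts, nor fewer cells from less RNA per cell. The arrays held between 4728 and 4894 ratios each, and their number limits the precision of every value. VHS3 (YOR054C), the deleted gene, was at −2.06 and −2.50 on the pair of replicate 1 and at 0.09 on the array labelled replicate 2, and HAL3 (YKR072C) was at −1.33, −1.29 and −0.14. In the direction used both were thus low in the mutant in replicate 1. URA3 (YEL021W), the marker that the label puts in the mutant, was at −1.40, −0.82 and −0.33, lower in the mutant on each array, which goes against the label or the direction. For VHS3 the array labelled replicate 2 goes against its label, and the ratios are given for it and for replicate 1 apart. The limma test, the means with SD and the counts over both replicates still take it as a replicate of the mutant. The ratios on that array were also less spread, with an SD over genes of 0.353 against 0.650 and 0.699 on the pair.

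As a group the processome genes lay above 0 in replicate 1, whereas the array labelled replicate 2 had them near 0. In replicate 1, taken as the mean of the pair, 33 of 36 measured members were above 0, against 51.7% of all genes, with a median of 0.74, where the median over all genes was 0.02. The exceptions were NOP1, UTP30 and RCL1. On the array labelled replicate 2, 22 of 36 were above 0, against 49.9%, with a median of 0.03. At least 2-fold higher ratios were found for 10 of 36 members in replicate 1, against a background of 3.15% of all genes, and for 0 of 36 on the array labelled replicate 2, against 0.338%. There 1 of 36, IMP3, was at least 2-fold lower, against 2.39%.

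Where the replicates shared a sign, it was the positive one for each member. Of the 35 members with both replicates, 19 were above 0 in both, against 26.6% of all genes, and 0 were below 0 in both, against 24.6%. Only RCL1 and UTP30 of these were below 0 in replicate 1, so few could be below 0 in both. The counts thus largely carry the shift of replicate 1, and agreement between the replicates was not tested. Of the 33 members on all 3 arrays, 14 were above 0 on each, against 14.5%, and 0 were below on each, against 15.9%. On both arrays of replicate 1, 25 of 34 members were above 0, against 27.8%. By itself, the array labelled replicate 2 split the members 22 above to 14 below.

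No member passed the test. In limma, with Benjamini-Hochberg adjustment over 4598 genes, 0 of 35 members had an adjusted p under 0.05, as did 0% of all genes, and the members' adjusted p ran from 0.925 to 0.993. The altered genes VHS3 and HAL3 did not pass either, each with a limma adjusted p of 0.925. The lack of a call is therefore not evidence that a member was unchanged. At an unadjusted p under 0.05 there were 5 of 35 members, all with a positive mean, against 4.83% of all genes. These were SOF1 (p of 0.0287), UTP18 (0.0323), UTP5 (0.0461), UTP23 (0.0463) and EMG1 (0.04999), the unadjusted p being from limma. That count ran from 0 when the Cy3 array was left out to 17 with the dye as a coefficient, so it depends on how the dye-swap pair is used. The share of all genes at that p was not computed in those settings, so the changed counts have no background.

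**Figure D1:**
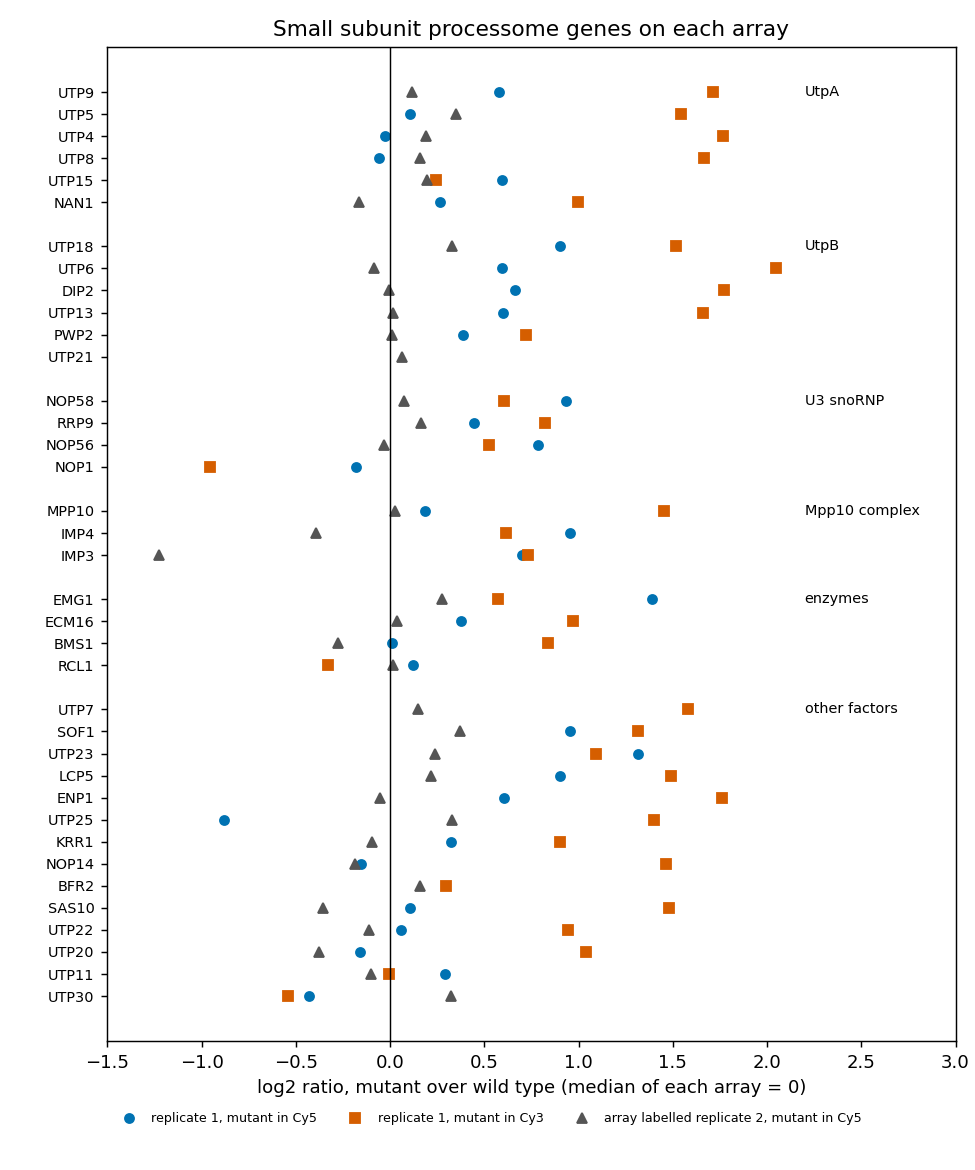
Log2 ratio of mutant over wild type (horizontal axis) for each of the 37 genes with a value, by subcomplex, with 1 point per array. Squares (replicate 1, mutant in Cy3) lie farthest right for most UtpA and UtpB genes. Circles (replicate 1, mutant in Cy5) lie in between for the UtpB genes measured in replicate 1. In UtpA they lie farthest left for UTP4, UTP5 and UTP8 and farthest right for UTP15. Triangles (the array labelled replicate 2) run from −1.23 to 0.37.

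UtpA is the subcomplex that binds the 5′ end of the pre-rRNA first, and some of its proteins are also linked to rDNA transcription. Its 6 measured genes had medians of 0.19 (mutant in Cy5) and 1.60 (mutant in Cy3) in replicate 1. The array labelled replicate 2 gave 0.18, the highest subcomplex median on that array. UTP9 (YHR196W) was at 0.58, 1.72 and 0.12 in that order of arrays, with a mean over replicates of 0.63 ± 0.73 (SD, n = 2). UTP5 (YDR398W) was at 0.11, 1.55 and 0.35. Both lay above 0 on every array, the Cy3 value standing apart. UTP4 (YDR324C) was at −0.03, 1.77 and 0.19, and UTP8 (YGR128C) at −0.06, 1.66 and 0.16. For these, replicate 1 was thus positive through a single array. UTP15 (YMR093W) was the exception in the other direction, at 0.59, 0.24 and 0.20, with little spread between arrays. NAN1 (YPL126W) had the lowest mean of the subcomplex, 0.23 ± 0.56 (SD, n = 2), from 0.27, 1.00 and −0.16.

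UtpB forms the next layer, most of its proteins being WD40-repeat scaffolds. Its 5 genes measured in replicate 1 were above 0 on both arrays, with medians of 0.60 and 1.66, and 4 of them were at least 2-fold higher as a mean of the pair. On the array labelled replicate 2 the median of its 6 genes was 0.01. UTP18 (YJL069C), whose protein recruits the nuclear exosome helicase Mtr4, was at 0.90, 1.52 and 0.33, a mean of 0.77 ± 0.62 (SD, n = 2) with a limma adjusted p of 0.925. It was the only UtpB gene clearly above 0 on the array labelled replicate 2, where the others ran from −0.09 to 0.06. UTP6 (YDR449C) was at 0.60, 2.05 and −0.09, the highest single ratio of any member. DIP2 (YLR129W) was at 0.66, 1.77 and −0.01. UTP13 (YLR222C) was close to it, at 0.60, 1.66 and 0.02. PWP2 (YCR057C), a scaffold needed for the 5′ part of the particle, had the lowest mean of UtpB, 0.28 ± 0.38 (SD, n = 2), from 0.39, 0.72 and 0.01. UTP21 (YLR409C) had the array labelled replicate 2 only, at 0.06.

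**Figure D2:**
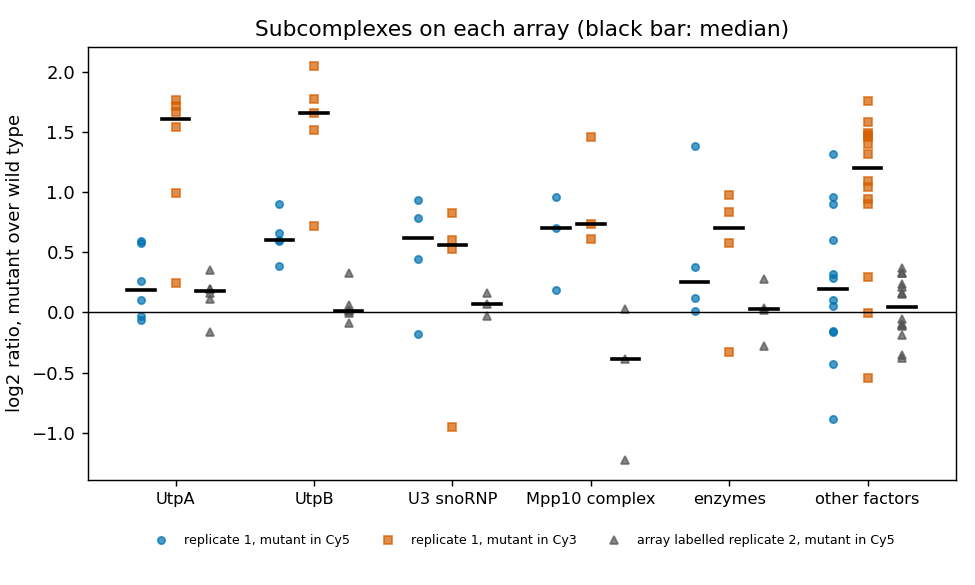
Log2 ratio of mutant over wild type (vertical axis) for the genes of each subcomplex, with points for genes, black bars for medians and 1 column of points per array. UtpA and UtpB have medians of 1.60 and 1.66 with the mutant in Cy3, the U3 particle has similar medians of 0.62 and 0.56 on both arrays of replicate 1, and the Mpp10 complex has the lowest median, −0.39, on the array labelled replicate 2.

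The U3 particle contains the core proteins of box C/D small nucleolar RNPs and a U3-specific protein. Its 4 genes had medians of 0.62 and 0.56 on the pair, close to each other unlike those of UtpA and UtpB, and a median of 0.07 on the array labelled replicate 2 (3 genes). NOP58 (YOR310C) was at 0.93, 0.61 and 0.07 (mean 0.42 ± 0.49, SD, n = 2). NOP56 (YLR197W), which pairs with Nop58 on the snoRNA, was nearly the same, at 0.79, 0.52 and −0.03 (mean 0.31 ± 0.49, SD, n = 2). RRP9 (YPR137W), the U3-specific WD40 protein, was at 0.45, 0.82 and 0.16. NOP1 (YDL014W), the methyltransferase known in other species as fibrillarin, went the other way, at −0.18 and −0.95 on the pair. It was the lowest of all members in replicate 1 (−0.57) and stood apart from the NOP56 and NOP58 genes whose products it works with. With no value on the array labelled replicate 2, it could not be tested.

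The Mpp10 complex links U3 to the pre-rRNA, Imp3 and Imp4 helping the RNAs to pair. Its 3 genes were alike in replicate 1, between 0.72 and 0.82, and spread from −1.23 to 0.03 on the array labelled replicate 2. MPP10 (YJR002W) was at 0.19, 1.45 and 0.03 (mean 0.42 ± 0.56, SD, n = 2). IMP4 (YNL075W) was at 0.96, 0.61 and −0.39. IMP3 (YHR148W) was at 0.70, 0.73 and −1.23, which gave it the lowest mean of any member, −0.26 ± 1.37 (SD, n = 2). Both arrays of the pair gave nearly the same value for IMP3, while the array labelled replicate 2 placed it below all but 1.40% of genes. IMP3 lies on chromosome VIII, whose median on that array was −0.09. There its divergent neighbour MRPL6 was at −0.43 and its convergent neighbour SKG6 at 0.39. UTP9, on the same chromosome, was at 0.12.

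Among the enzymes, EMG1 stood highest and RCL1 lowest. EMG1 (YLR186W), which methylates a pseudouridine of 18S rRNA, was at 1.39, 0.57 and 0.28 (mean 0.63 ± 0.50, SD, n = 2), above 0 on each array. Its order of dyes was opposite to that of UtpA. ECM16 (YMR128W), the DEAH-box helicase also called Dhr1 that displaces U3, was at 0.38, 0.97 and 0.04. BMS1 (YPL217C), a GTPase, was at 0.01, 0.84 and −0.28. RCL1 (YOL010W), the cyclase-like protein that Bms1 brings into the particle, was at 0.12, −0.33 and 0.02, a mean of −0.04 ± 0.09 (SD, n = 2). The genes of these binding partners therefore differed mainly on the Cy3 array.

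The means of the other factors spanned a wide range. UTP7 (YER082C) had the highest mean of all members, 0.87 ± 1.01 (SD, n = 2), but its replicate 1 value of 1.58 came from the Cy3 array alone, the other being blank, and it was at 0.15 on the array labelled replicate 2. SOF1 (YLL011W), a WD40 protein, was at 0.96, 1.32 and 0.37 (mean 0.75 ± 0.54, SD, n = 2). It was above 0 on each array and the highest member on the array labelled replicate 2. UTP23 (YOR004W), a PIN-domain protein that acts with the snR30 RNA, was at 1.32, 1.09 and 0.24 (mean 0.72 ± 0.68, SD, n = 2). LCP5 (YER127W), which works with Bfr2, was at 0.90, 1.49 and 0.22 (mean 0.71 ± 0.69, SD, n = 2). SOF1, UTP23 and LCP5 were thus high in both dye orientations. BFR2 (YDR299W) was at 0.30 (Cy3 array only) and 0.16. ENP1 (YBR247C), which stays on the particle into the cytoplasm, was at 0.60, 1.76 and −0.05.

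Several factors were high on the Cy3 array alone. NOP14 (YDL148C), a partner of Emg1, was at −0.15, 1.46 and −0.19. SAS10 (YDL153C) was at 0.10, 1.48 and −0.36, and UTP20 (YBL004W), a large HEAT-repeat protein, at −0.16, 1.04 and −0.38. UTP22 (YGR090W) was at 0.06, 0.94 and −0.11. These genes had a value near or below 0 on both arrays with the mutant in Cy5. KRR1 (YCL059C), a KH-domain protein, was at 0.32, 0.90 and −0.09. UTP11 (YKL099C) stayed near 0, at 0.29, −0.0029 and −0.10. UTP30 (YKR060W), whose protein resembles ribosomal protein L1, was below 0 on both arrays of replicate 1, at −0.43 and −0.54, and at 0.33 on the array labelled replicate 2, a mean of −0.08 ± 0.57 (SD, n = 2).

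The arrays of the pair, made from the same RNA of replicate 1 with the dyes exchanged, placed the members differently. The median of the members was 0.38 with the mutant in Cy5 and 1.02 with the mutant in Cy3, and 24 of 34 were higher in the latter, against 48.1% of all genes. Dye orientation and array cannot be told apart here. The gap was at least 1 on the log2 scale, with the Cy3 value higher, for 13 of 34 members, against 7.94% of all genes, and for 0 members in the other direction. UTP25 (YIL091C) had the widest gap, from −0.88 to 1.40. Of the members measured, 24 of 36 lay above the 90th percentile of all genes on the Cy3 array, 8 of 34 on the Cy5 array and 5 of 36 on the array labelled replicate 2. Members are not replicates. Over the 34 of them with both values, Pearson's r between the arrays of the pair was 0.13 (Spearman's rho 0.03), where it was 0.51 (0.29) over 4546 genes, and the points share the same RNA. Across 35 members r between replicates was 0.08 (rho 0.22), and it was also low over 4598 genes, at 0.16 (rho 0.07). The group was thus placed above 0 on both arrays of replicate 1, but the ratios of its genes correlated weakly between them. The part of the dye in these ratios was not tested beyond the alternatives given.

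**Figure D3:**
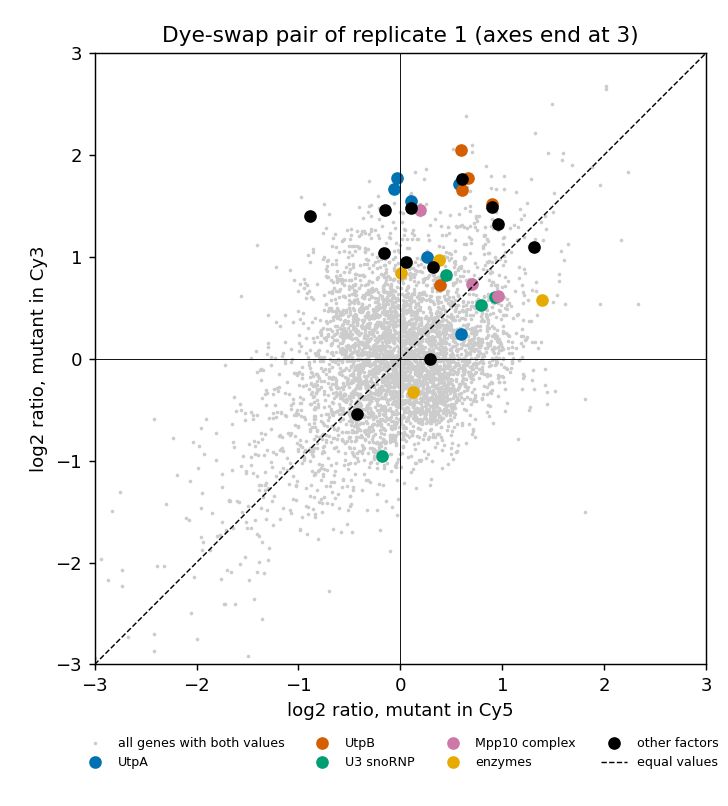
Log2 ratio on the replicate 1 array with the mutant in Cy5 (horizontal axis) against that with the mutant in Cy3 (vertical axis), with grey points for all genes and coloured points for 34 processome genes by subcomplex. The members gather in the upper right and 24 of 34 lie above the dashed line of equal values.

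Of the members' chromosomes only that of UTP25 had a median far from 0. UTP25, a helicase-like protein, lies on chromosome IX, whose median was −0.72 in replicate 1, and it was at −0.88, 1.40 and 0.33, a mean of 0.29 ± 0.05 (SD, n = 2). Set against that chromosome's median its replicate 1 value was 0.97 in place of 0.26. The other members' chromosomes had medians from −0.0048 to 0.10 in replicate 1. Their range was −0.09 to 0.08 on the array labelled replicate 2. Without the 5 members on chromosomes VII, VIII and IX the group's medians were 0.77 and 0.03.

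Genes that share an upstream region with a member were also looked at, since neighbouring genes can be read from a common promoter region. For 17 members the next gene upstream is divergent, by the order of genes in RefSeq R64, and none of these partners is a member. Of the 15 partners measured in replicate 1, 13 were above 0, with a median of 0.37, against the 51.7% of all genes above 0. On the array labelled replicate 2 it was 7 of 14, with a median of 0.01. Neighbours on the same strand were above 0 for 20 of 34 (median 0.10) and convergent ones for 10 of 18 (median 0.09) in replicate 1, both near the share over all genes. Examples above 0 in replicate 1 are NCB2, a transcription regulator next to UTP5, at 0.96 and 0.17, and NSA2 next to LCP5. NSA2, a 60S assembly factor, was at 0.69 and −0.51. RPS18A, a ribosomal protein gene next to UTP6, was at 0.45 and −0.12. NSA2 and RPS18A also belong to lists described below, whose genes were mostly above 0 in replicate 1. The partners below 0 there were AIP1, next to UTP15, at −0.43, and ICE2, next to UTP25 on chromosome IX, at −0.58. The difference between orientations was not tested.

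Other genes of the same pathway had similar levels. In a list of 36 further processome genes, 29 of 33 measured in replicate 1 were above 0, against 51.7% of all genes. Their median was 0.67 there and 0.03 on the array labelled replicate 2 (31 genes). Of these, 0 of 31 passed the limma test in either direction. RRP36 was highest, at 1.32, 2.21 and 0.23, followed by BUD22 (1.02, 1.79 and −0.06) and NSR1 (1.61, 0.96 and 0.03). The lowest means were those of FAF1 (−0.28, −0.22 and −0.67), CKB1 (0.09, 0.28 and −1.08) and CKA1 (−1.37, −0.11 and 0.10), the last pair being subunits of casein kinase 2, which has many other roles. FAF1 and CKA1 lie on chromosome IX. Among 13 late pre-40S factors 12 of 12 measured were above 0 in replicate 1 (median 0.65), against the same 51.7% of all genes. Their median was −0.01 on the array labelled replicate 2, and 0 of 12 passed the limma test. PNO1, a KH-domain factor of the pre-40S particle, was at 1.15, 1.29 and 0.52, above the highest processome member on the last array.

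The list of 62 factors for the 60S subunit had medians of 0.45, 1.11 and −0.02, close to the 0.38, 1.02 and 0.03 of the processome genes array by array. The 40S ribosomal protein genes lay in the opposite order on the pair, with medians of 0.73 (mutant in Cy5) and −0.0037 (mutant in Cy3) in replicate 1. Their median was −0.01 on the array labelled replicate 2. On the pair 24 of 34 processome genes had the higher ratio with the mutant in Cy3, against 1 of 50 ribosomal protein genes. With the pair averaged for each gene, the median over genes was 0.38 for the ribosomal protein list and 0.74 for the processome genes. Neither of these 2 lists had a gene past the limma test (0 of 60 and 0 of 52). The differences between lists were not tested.

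**Figure D4:**
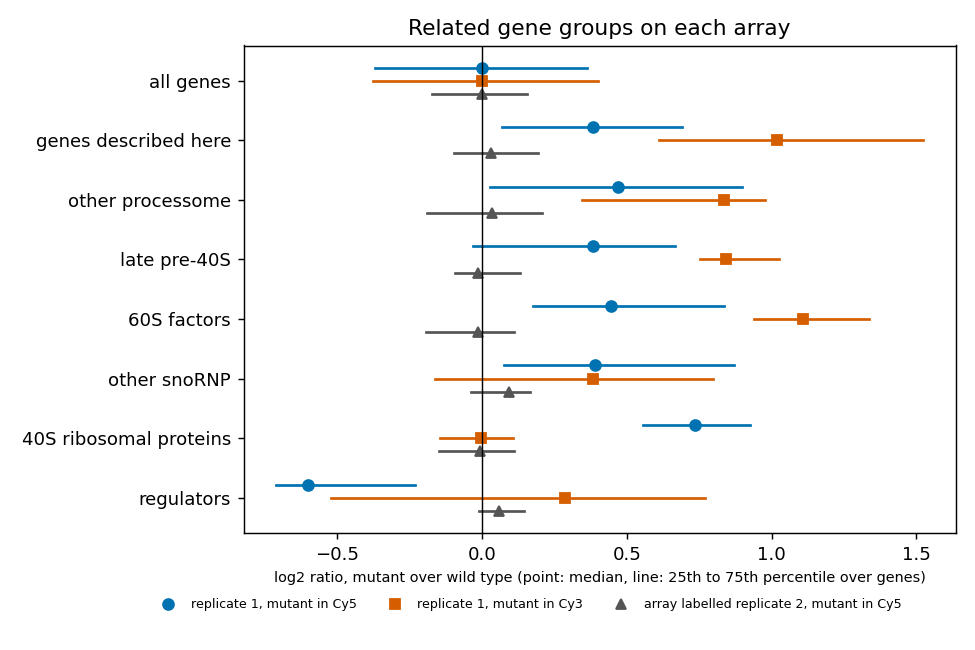
Median log2 ratio of mutant over wild type (horizontal axis, points) with the 25th to 75th percentile over genes (lines) for 8 gene groups, with 1 symbol per array. Processome genes and 60S factors have their highest median with the mutant in Cy3 (1.02 and 1.11), 40S ribosomal proteins with the mutant in Cy5 (0.73), and all groups lie near 0 on the array labelled replicate 2.

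Other small nucleolar RNP genes had medians of 0.39, 0.38 and 0.09, with 0 of 13 past the test. The highest means were those of NOP10 (1.22, 0.84 and 0.16), BCD1 (0.92, 0.55 and 0.15) and NHP2 (1.56, 0.76 and −0.31). The lowest were those of RSA1 (−0.16, −0.52 and −0.03), PIH1 (−0.475, 0.02 and 0.09) and NAF1 (0.16, −0.15 and −0.05). NOP10 and NHP2 belong to the H/ACA particles that guide pseudouridylation. Of the same particles, CBF5 was at 0.49, 0.51 and 0.16, and GAR1 at 0.97, −0.17 and −0.29. The 12 regulators of ribosome biogenesis genes had medians of opposite sign on the pair. With the mutant in Cy5, 10 of 12 were below 0 (median −0.60), and with the mutant in Cy3, 6 of 9 were above 0 (median 0.29). CRF1, TOR1 and KOG1 had the Cy5 array only in replicate 1, so these counts cover different genes. Of the regulators on both arrays of the pair, DOT6, TOD6 and STB3 kept their sign. The median was 0.06 on the array labelled replicate 2 (9 genes), and 0 of 9 passed the limma test. DOT6 and TOD6, paralogous repressors that bind the PAC element of these genes, were opposite on each array. DOT6 was at −0.64, −1.37 and −0.46, and TOD6 at 1.40, 1.16 and 0.41. STB3, a repressor that binds the RRPE element, was at −0.42, −0.93 and 0.08. SFP1, an activator, was at 0.23, −0.52 and −0.01.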

How the data were processed

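Per the labels' protocols, cDNA was made from 8 µg of total RNA with oligo(dT) and given Cy3 or Cy5 by an indirect method. The authors deposited 1 log2 ratio per gene and array. How spots were scanned, corrected and normalized is not given in these sources. Blanks were left out. As log2, 100% of the deposited values turn into ratios with steps of 0.001, while 9.69 to 11.2% do so if the sign is turned. The tolerance was the rounding of the deposited log2 value (0.00005 either way) plus 1e-06 of a step, set slightly narrower after a first run. As both arrays of the pair correlate positively, the swap had already been undone.

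Each array was centred on its median, and the dye-swap pair was averaged into 1 replicate. Genes with a value in both replicates (4598) entered lmFit and eBayes of limma 3.58.1 (R 4.3.3), which tested the mean against 0 (1 residual degree of freedom, prior degrees of freedom 5.15), two-sided, at a Benjamini-Hochberg adjusted p of 0.05. With 2 replicates the exact sign-flip p is at least 0.5. The fit was tested on simulated data. Alternatives changed the use of the pair, the dye term, centring, scaling, missing values, prior and threshold. Promoter motifs were not analysed here. Nothing in the labels says more of how the replicates were grown, so p-values measure the spread between these samples. The p-values were computed here and none was deposited.

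Names and gene order come from RefSeq R64 (5638 of 6212 identifiers matched), and chromosomes from the systematic names. The members and lists were chosen with earlier results of these data known. Named with means were, by rule, the highest and lowest member of each subcomplex, the 6 highest of all and the member on chromosome IX. From related lists up to 3 of the highest and lowest were named. MRPL6, SKG6, NCB2, NSA2, RPS18A, AIP1, ICE2, CBF5, GAR1 and SFP1 were named after their values were seen.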

Additional observations from a re-analysis of the deposited data

How the results depend on the processing

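No member passed the limma test under any of the alternatives, while the count over all genes rose from 0 to 13 with replicate 1 from the Cy3 array only, 16 with 3 arrays as if independent, 8 centred on each chromosome's median, 4 scaled to the same median absolute deviation and 12 with quantile normalization. The count of members at an unadjusted p under 0.05, 5 as reported, was 0 without the Cy3 array, 14 with the Cy3 array alone for replicate 1, 11 with 3 arrays as if independent, 17 with the dye as a coefficient and 8 with chromosome centring. The share of all genes at that p was not computed in these settings, and the cause of the changes was not tested. Left to a single replicate, which allows no test, the median of the members' means (0.36 with both) ran from 0.03 without replicate 1 to 0.77 without replicate 2. By name, sign changes were followed only for the members given with means. Among them RCL1 (0.071) and UTP25 (−0.28) changed sign without the Cy3 array. IMP3 changed sign with 3 arrays as if independent (0.068) or the dye as a coefficient (0.23). UTP30 did so with quantile normalization (0.15) or arrays scaled to the same median absolute deviation (0.10). Of the members not followed, NOP14 and UTP20 had positive means but were below 0 on both arrays with the mutant in Cy5. BMS1 (0.01 and −0.28), SAS10 (0.10 and −0.36) and UTP22 (0.06 and −0.11) also had positive means. On those arrays their negative value was the larger in size, so their means too would fall below 0 without the Cy3 array. Without 1 replicate, IMP3 ran from −1.23 to 0.72, NAN1 from −0.16 to 0.63, NOP56 from −0.032 to 0.66, RCL1 from −0.10 to 0.018 and UTP30 from −0.49 to 0.33. Over all 35 members with both replicates, 15 means changed sign without replicate 1 and 1 without replicate 2. The medians by replicate and by subcomplex moved by less than the spread between replicates wherever recomputed. That spread is wide, with member medians of 0.74 and 0.03, so staying within it says little about how stable they are. The median in replicate 1 was 0.38 from the Cy5 array alone and 1.02 from the Cy3 array alone. Subcomplex medians were not recomputed in those settings. Leaving out chromosomes VII, VIII and IX was added after the data were seen. No paired analysis was possible because each ratio already pairs mutant and wild type on an array. Signal over background is unknown.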
